A study of Canis lupus familiaris with 18 samples.

Results

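The 6 canine osteosarcomas with the highest expression of interferon-induced genes were set against the 6 with the lowest, which used 12 of the 18 tumours of the series. Tumours were ranked by an interferon score, the mean over 3 genes of each gene's z-score across the 18 arrays. The genes were MX1, a GTPase that blocks viral replication, ISG15, a small ubiquitin-like protein that is attached to other proteins after interferon exposure, and OAS1, an enzyme that senses double-stranded RNA. Each was read from its probe set of highest mean, a probe set being the group of short probes that measures one transcript. IFIT1, the fourth gene listed for the score, had no probe set named for it in the platform annotation and did not enter. The tumours were thus selected on the measured levels of these genes, so those levels are given as a description, and all their probe sets are left out of the findings.

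All samples were primary osteosarcoma tissue from dogs, frozen at surgery, biopsy or necropsy and treated alike, with 1 Affymetrix canine array per tumour. The series was built to compare 9 tumours from dogs with a normal serum concentration of alkaline phosphatase (ALP) with 9 from dogs with an increased one, and it had no normal tissue. ALP is an enzyme of bone-forming cells and other tissues that is measured in serum. The labels give no breed, age, sex or treatment and match no tumour to a procedure, and they do not state in so many words that each came from a different dog, so the p-values below measure the spread between these samples.

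Interferons are secreted proteins that cells make when they sense nucleic acids of viruses or misplaced nucleic acids of their own. Type I interferons bind a receptor that, through JAK1 and TYK2, activates a complex that holds STAT2 and IRF9 and turns on antiviral genes such as those of the score. Interferon gamma, made by T and natural killer cells, acts through another receptor, and it raises antigen presentation and chemokines.

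The score of the interferon-high tumours was 2.03 in normal ALP replicate 9, 1.49 in increased ALP replicate 1, 1.15 in normal ALP replicate 8, 0.93 in increased ALP replicate 3, 0.68 in increased ALP replicate 9 and 0.58 in normal ALP replicate 7. The next tumour, normal ALP replicate 2, lay just outside at 0.47. The interferon-low tumours scored -1.13 (normal ALP replicate 3), -0.94 (increased ALP replicate 2), -0.90 (normal ALP replicate 4), -0.87 (increased ALP replicate 4), -0.79 (increased ALP replicate 7) and -0.75 (increased ALP replicate 6), and normal ALP replicate 5 lay just outside at -0.74. The high side was thus spread over a wide range, while the low tumours and their nearest neighbour lay close together. In deposited log2 units, MX1 ranged from 7.68 to 11.97 over the 18 tumours, ISG15 from 7.42 to 11.98 and OAS1 from 8.18 to 11.57.

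**Figure D1:**
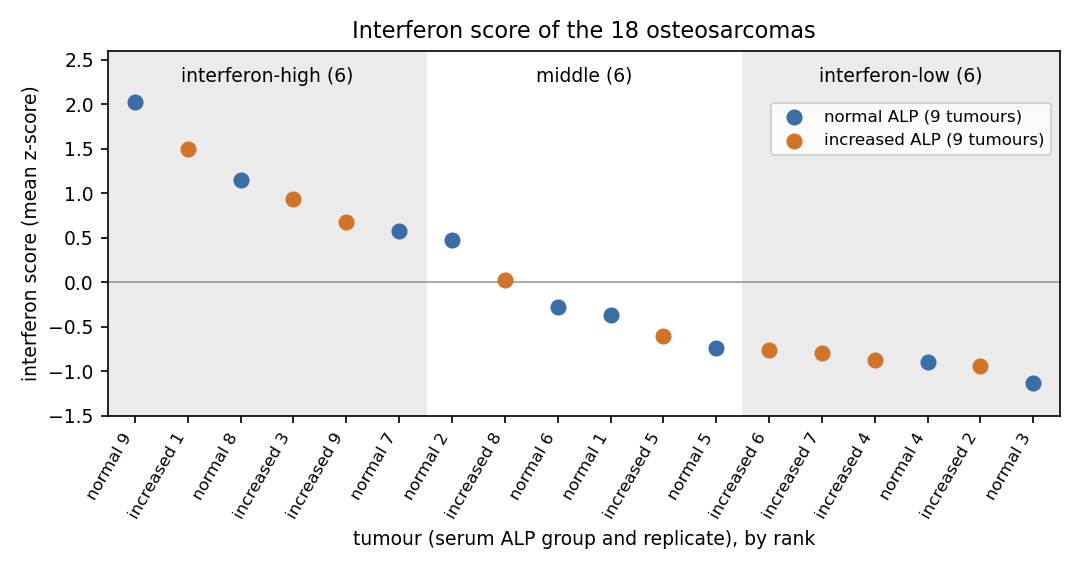
Interferon score (mean z-score of MX1, ISG15 and OAS1, vertical axis) of the 18 tumours in rank order (horizontal axis), each point 1 tumour coloured by serum ALP group. Both colours lie on each shaded side, 3 normal and 3 increased ALP among the 6 highest and 2 normal and 4 increased ALP among the 6 lowest.

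The serum ALP groups fell on both sides. The interferon-high side held 3 normal and 3 increased ALP tumours, the interferon-low side 2 and 4, and the 6 middle tumours 4 and 2. Fisher's exact test of ALP group against side gave a two-sided p of 1.0. Over all 18 tumours the mean score was 0.0919 ± 1.05 (SD, n = 9) in the normal ALP group and -0.0919 ± 0.914 (SD, n = 9) in the increased ALP group, a difference of -0.18 with a standard error of 0.46 (exact two-sided permutation test, p = 0.694). Scores ran from -1.13 to 2.03 among normal ALP tumours and from -0.94 to 1.49 among increased ALP tumours, so the groups overlapped over nearly the whole range. The difference between the sides was also tested for a dependence on ALP group. None of the 25747 probe sets passed that interaction test (limma, smallest Benjamini-Hochberg adjusted p = 0.0518), and 635 had an unadjusted p under 0.05.

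Below, levels are log2(signal + 16), where the 16 was added to each linear signal to steady dim probe sets, and a difference is the mean of the 6 high tumours minus that of the 6 low ones on that scale, with its standard error. The scale understates changes of dim probe sets, and the number of arrays limits the precision. Groups were compared with limma across all probe sets, with Benjamini-Hochberg adjusted p-values and a threshold of 0.05. The sides were ranked by interferon-induced genes of the same arrays, so a p-value describes which other probe sets moved with that ranking, not the effect of a treatment, and other interferon-induced genes moving with the score are no independent support for it. The tumours are mixtures of cells, and fewer cells of a type cannot be told apart from less RNA per cell.

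Across the whole array few probe sets passed. Of 25747 probe sets, 3 were higher in the interferon-high tumours (0.0117%) and none were lower (0.0%). At an unadjusted p under 0.05 there were 783 higher (3.04%) and 798 lower (3.1%). The 3 that passed measured IFI44, IFI44L and a transcript with no gene name in the annotation used. The median over 10714 genes, each read from its brightest probe set on average, was 0.0046, and 5481 had a positive difference.

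IFI44 and IFI44L, neighbouring members of 1 family of interferon-induced proteins that restrain viruses, rose by 1.68 and 2.09 on the log2 scale. IFI44 lay between 8.12 and 9.58 in the high tumours, with a median of 8.84, and between 6.93 and 7.38 in the low tumours, with a median of 7.10. No high tumour overlapped the low ones, as in 0.167% of all probe sets in that direction, and normal ALP replicate 9 was the highest of all 18. The difference was 1.68 ± 0.21 (SE, n = 6 per side; limma, Benjamini-Hochberg adjusted p = 0.0177; exact two-sided permutation test, p = 0.00216, the smallest that 6 against 6 allows). IFI44L lay between 9.49 and 10.88 with a median of 10.39 in the high tumours, and between 7.54 and 8.88 with a median of 8.32 in the low ones, again without overlap. Its difference was 2.09 ± 0.27 (SE, n = 6 per side; limma, Benjamini-Hochberg adjusted p = 0.0177).

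Other probe sets of both genes went the same way. The second IFI44 probe set differed by 1.12 ± 0.25 and also separated the sides, as in 0.167% of all probe sets in that direction. Those of IFI44L differed by 1.77 ± 0.28 without overlap and by 1.07 ± 0.31 with overlap. None of these passed (limma, Benjamini-Hochberg adjusted p from 0.0958 to 0.724). The unnamed transcript lay between 10.21 and 11.37 in the high tumours, with a median of 10.77, and between 8.36 and 9.46 in the low tumours, with a median of 8.96. Its sides were also apart, with a difference of 1.83 ± 0.23 (SE, n = 6 per side; limma, Benjamini-Hochberg adjusted p = 0.0177). The high minus low difference of increased ALP tumours less that of normal ALP tumours was -0.54 ± 0.36 for IFI44 and -0.43 ± 0.59 for IFI44L (limma interaction, Benjamini-Hochberg adjusted p = 1.0 for both).

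All 3 probe sets passed in 7 of the 12 fits that left out 1 tumour, and none of them in the other 5. When 1 of 5 tumours was left out (in the normal ALP group replicate 3, 4 or 8, in the increased ALP group replicate 3 or 7), none of the 3 passed, although the differences hardly moved. For IFI44 the adjusted p (limma, Benjamini-Hochberg) was 0.0611, 0.0635, 0.0729, 0.0682 and 0.076 without these tumours in turn, with a difference from 1.62 to 1.73. For IFI44L it was 0.0611, 0.0817, 0.0734, 0.0682 and 0.076, and for the unnamed transcript 0.0611, 0.0635, 0.0729, 0.0682 and 0.076. Increased ALP replicate 3, on the high side, and increased ALP replicate 6, on the low side, had a high signal of the BioB spike-in control, and without both the IFI44 difference was 1.66 and its adjusted p 0.165. None of the 3 passed either with 5 or 9 tumours per side, or where MX1 or ISG15 was left out of the score. IFI44L alone also lost its call with ALP group as a covariate (adjusted p = 0.0523), in the fit of all 18 tumours (0.116) and with the actin measure of RNA degradation as a covariate (0.0614).

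**Figure D2:**
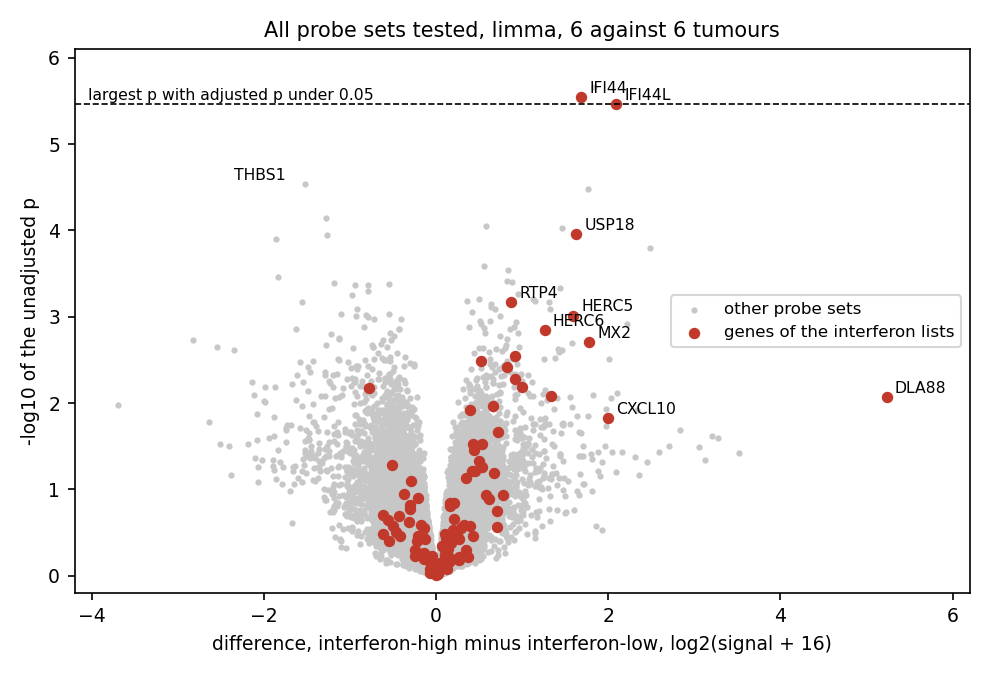
Difference between interferon-high and interferon-low tumours (horizontal axis, log2(signal + 16)) against -log10 of the unadjusted limma p (vertical axis) for 25747 probe sets, with genes of the interferon lists in red. IFI44 and IFI44L lie at the top right on or above the dashed line, THBS1 is the highest named point on the left, and DLA88 lies farthest to the right.

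Antiviral effectors, the proteins through which interferon blocks viruses, were mostly higher in the interferon-high tumours. Of 60 listed genes besides the scoring ones, 42 had a named probe set and 38 passed the filter on dim values. IFI44 and IFI44L passed the test (2 of 38, against 0.0187% of all genes), 11 of 38 were higher at an unadjusted p under 0.05 (2.89% of all genes) and none was lower at that level (3.19% of all genes). Of the 38, 32 had a positive difference, and the median was 0.26. The mean level of the 38 genes ran from 8.04 to 8.82 in the high tumours, from 7.82 to 8.27 in the middle ones and from 7.76 to 8.11 in the low ones. Of the high tumours, 5 of 6 lay above every low tumour. These genes are interferon-induced like those of the score, so this is a description and no independent support for the name interferon-high. In 16 of the 38 genes the highest of all 18 tumours was normal ALP replicate 9.

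Among the antiviral genes that did not pass, RTP4, an interferon-induced receptor chaperone, had the smallest p. It lay between 6.90 and 8.02 with a median of 7.39 in the high tumours and between 6.25 and 6.81 with a median of 6.57 in the low ones, a difference of 0.87 ± 0.20 (limma, Benjamini-Hochberg adjusted p = 0.462). Its sides did not overlap, which held for 3 of the 38 antiviral genes and for 0.14% of all genes in that direction. MX2, the paralog of MX1, lay between 7.26 and 10.38 with a median of 8.77 against 6.30 to 7.87 with a median of 6.99, a difference of 1.77 ± 0.46 (adjusted p = 0.624). Of the high tumours, normal ALP replicate 8 alone reached into the low range. The poly-ADP-ribose polymerase PARP14 differed by 0.83 ± 0.24, and DTX3L, the partner of PARP9 in a ubiquitin ligase, by 0.92 ± 0.25. DDX60, a helicase of the antiviral response, differed by 1.34 ± 0.43, and IFI35, an interferon-induced leucine zipper protein, by 1.0 ± 0.31. None of these 4 passed (limma, Benjamini-Hochberg adjusted p from 0.679 to 0.731).

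Other textbook antiviral genes differed by less than those above and did not pass. EIF2AK2, the kinase PKR that halts translation, differed by 0.24 ± 0.24, and ADAR, which edits double-stranded RNA, by 0.05 ± 0.12. OAS2, from the family of OAS1, differed by 0.62 ± 0.38 and OAS3 by 0.06 ± 0.08. RSAD2, the antiviral enzyme viperin, and IFIT2 lay below the filter, with means of 5.51 and 6.25 in the high tumours and 5.39 and 5.72 in the low ones. These 6 genes were named after their values were seen.

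The genes that attach ISG15 to proteins and remove it were split. USP18, the protease that removes ISG15 and damps receptor signalling, lay between 7.95 and 9.64 with a median of 8.72 in the high tumours and between 6.47 and 8.0 with a median of 7.21 in the low ones. All but 1 high tumour lay above every low tumour, and the difference was 1.63 ± 0.30 (limma, Benjamini-Hochberg adjusted p = 0.181). HERC5, the main ligase for ISG15 in humans, differed by 1.59 ± 0.37, and its relative HERC6 by 1.26 ± 0.31 (adjusted p = 0.502 and 0.548). The other enzymes of the chain were close on both sides, with -0.18 ± 0.30 for the activating enzyme UBA7 and 0.16 ± 0.20 for the conjugating enzyme UBE2L6. None of the 5 genes passed, 3 were higher at an unadjusted p under 0.05 (2.89% of all genes), and the list median was 1.26.

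**Figure D3:**
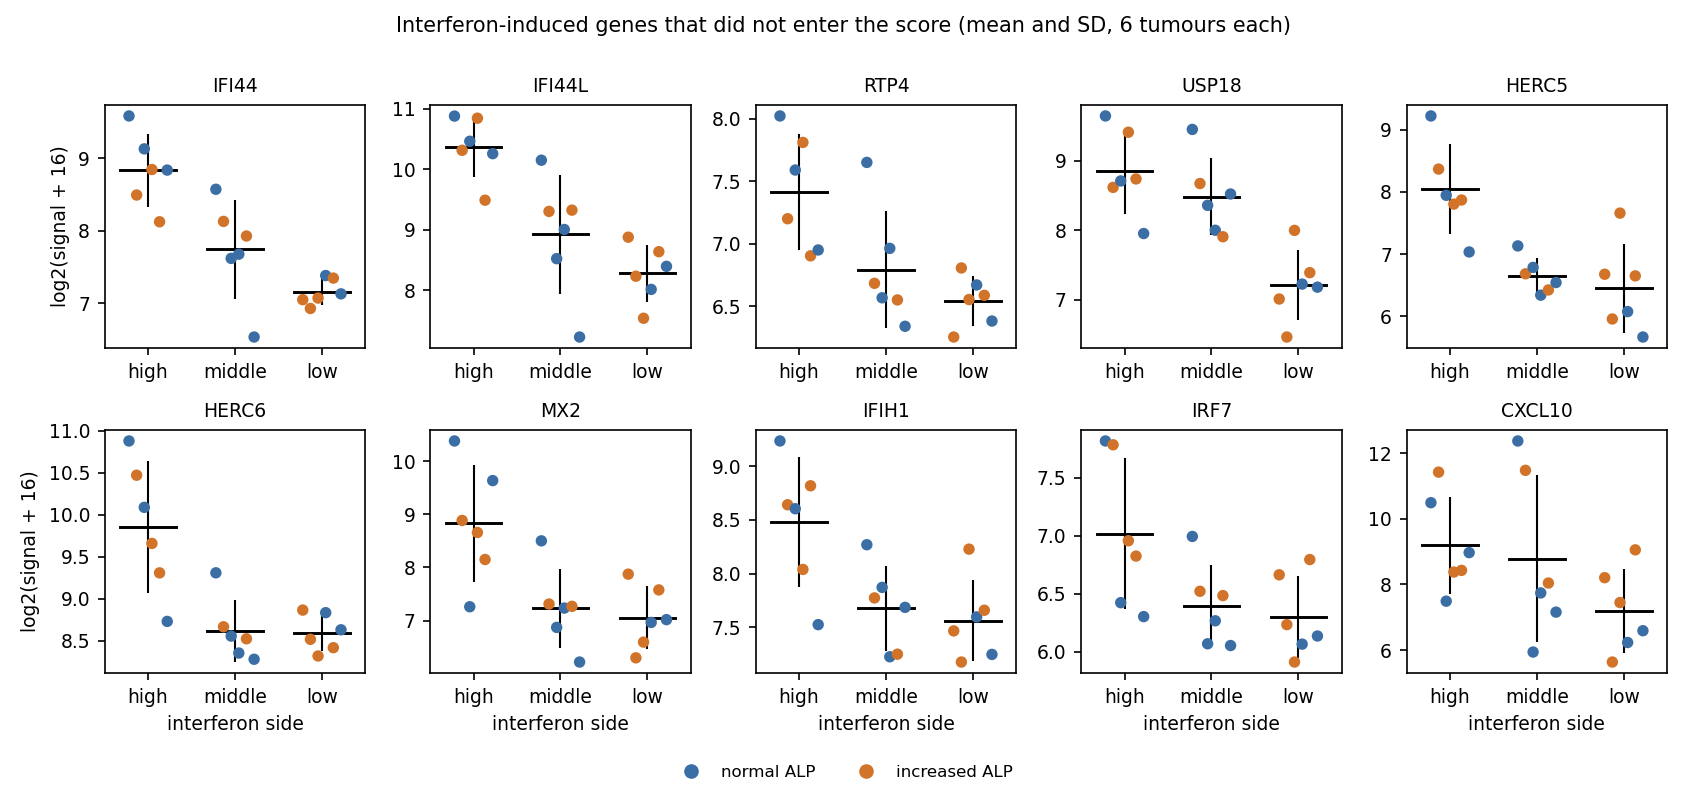
Levels of 10 interferon-induced genes outside the score (vertical axes, log2(signal + 16)) in the high, middle and low tumours, with 1 point per tumour coloured by serum ALP group, the mean as a bar and the SD as a line (n = 6). IFI44, IFI44L and RTP4 show no overlap between high and low, while CXCL10 is highest in a middle tumour.

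Sensors of viral RNA are themselves interferon-induced, and 2 of 8 measured sensors and adaptors were higher at an unadjusted p under 0.05 (2.89% of all genes). IFIH1, the cytoplasmic RNA sensor MDA5, lay between 7.53 and 9.23 in the high tumours, with a median of 8.62, and between 7.18 and 8.23 in the low ones, with a median of 7.53, a difference of 0.91 ± 0.27. DHX58, the regulator LGP2, lay between 6.46 and 7.46 in the high tumours and between 6.14 and 6.38 in the low ones, and its sides were apart by a narrow margin (0.52 ± 0.14), as in 0.14% of all genes. Neither passed (limma, Benjamini-Hochberg adjusted p = 0.724 and 0.679). The adaptor MYD88 differed by 0.16 ± 0.19, the kinase IKBKE by 0.16 ± 0.19, TLR9, an endosomal sensor of DNA, by 0.10 ± 0.10, and TLR3, an endosomal sensor of RNA, by -0.06 ± 0.20. The list median was 0.13.

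The signalling chain between receptor and genes moved little. The transcription factor IRF7, which amplifies the type I response, differed by 0.72 ± 0.27 and IRF1 by 0.49 ± 0.22, both with an unadjusted p under 0.05 and neither passing (limma, Benjamini-Hochberg adjusted p = 0.787 and 0.804). IRF9, the DNA-binding part of the type I complex, differed by 0.35 ± 0.18, STAT2 by 0.06 ± 0.16, IRF3 by -0.16 ± 0.17 and IRF2, mainly a repressor, by -0.51 ± 0.24. JAK2, a kinase of the interferon gamma receptor, was the only one of the 12 with an unadjusted p under 0.05 in the other direction (-0.78 ± 0.24, adjusted p = 0.724). IRF5 and IRF8 lay below the filter. Of the 12 genes, 6 had a positive and 6 a negative difference.

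Of 18 listed interferons and receptors only 5 were measured, and these did not differ beyond the spread. The receptor chain IFNAR1 differed by -0.31 ± 0.25, IFNGR1 by -0.43 ± 0.32, IFNGR2 by 0.02 ± 0.22 and IL10RB, a chain shared with the lambda interferon receptor, by 0.00 ± 0.37. For IFNAR1, all high tumours but increased ALP replicate 1 (9.33) lay below every low tumour, by a narrow margin (8.06 against 8.07). IFNAR1 passed in no alternative, with differences from -0.55 to -0.07. IFNL1, the only interferon that passed the filter, differed by -0.05 ± 0.09. IFNG lay below the filter, with a mean of 6.40 in the high tumours and 5.71 in the low ones and highest values of 7.57 and 6.50. IFNB1 and IFNK also lay below it, with means of 4.60 and 5.27 in the high tumours and 4.58 and 5.18 in the low ones.

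Targets of interferon gamma went with the score less evenly, and the difference between them and the antiviral genes was not tested. None of the 13 measured members had an unadjusted p under 0.05, 9 had a positive difference, and the median was 0.11. That median turned to -0.09 without increased ALP replicate 1. IDO1, an enzyme that breaks down tryptophan, differed by 0.78 ± 0.46 and CIITA, the master regulator of MHC class II, by 0.16 ± 0.11. The death receptor FAS differed by -0.29 ± 0.15 and TNFSF10, a ligand of other death receptors, by -0.46 ± 0.44. WARS1, a tRNA synthetase, differed by -0.18 ± 0.19, and IFI30, a lysosomal thiol reductase, was close on both sides (0.13 ± 0.23, named after its values were seen). The middle tumour normal ALP replicate 2 was the highest of all 18 for 7 of these 13 genes, against 1 of the 38 antiviral ones.

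CXCL10, the chemokine that draws activated T cells, had a large but scattered difference. It ranged from 7.49 to 11.42 with a median of 8.70 in the high tumours and from 5.64 to 9.05 with a median of 7.02 in the low ones. The sides overlapped, and the middle tumour normal ALP replicate 2 was the highest of all, at 12.37. The difference was 2.0 ± 0.71 (limma, Benjamini-Hochberg adjusted p = 0.787). The other chemokines differed by 0.70 ± 0.61 for CCL5, 0.35 ± 0.52 for CCL8, 0.02 ± 0.46 for CCL19 and -0.07 ± 0.89 for CCL2.

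In MHC class I presentation, which displays peptides to killer T cells, 11 of 13 measured genes had a positive difference and none passed. Of the 13, 2 were higher at an unadjusted p under 0.05 (2.89% of all genes), DLA88 and TAP2. The largest difference on the array in that direction was that of DLA88, a highly polymorphic class I gene of the dog, through its probe set of highest mean. It read between 12.88 and 13.74 in 5 of the 6 high tumours and 4.53 in normal ALP replicate 9, the tumour with the highest score. On the low side it read 4.58, 4.51, 4.40 and 4.48 in normal ALP replicate 3 and increased ALP replicates 2, 4 and 6, and it read 10.35 in normal ALP replicate 4 and 10.46 in increased ALP replicate 7. All 6 middle tumours read between 12.76 and 13.33. Tumours near 4.5 thus lay on both sides, none read between 4.58 and 10.35, and the difference was 5.23 ± 1.69 (limma, Benjamini-Hochberg adjusted p = 0.732). A second DLA88 probe set read between 7.86 and 10.45 in every tumour and differed by 0.62 ± 0.36, and in it normal ALP replicate 9 was the highest of the high tumours, at 10.22.

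Without DLA88, the other 12 class I genes had a median difference of 0.15, with 10 positive. The peptide transporter chains TAP1 and TAP2 differed by 0.45 ± 0.22 and 0.43 ± 0.18, and only TAP2 had an unadjusted p under 0.05 (limma, Benjamini-Hochberg adjusted p = 0.812 and 0.797). B2M, the shared light chain, was close on both sides, between 13.40 and 14.22 in the high tumours and between 13.51 and 14.18 in the low ones (0.05 ± 0.14, named after its values were seen). The loading factor TAPBPL differed by -0.21 ± 0.13, the trimming enzyme ERAP1 by -0.31 ± 0.21 and the chaperone CANX by 0.17 ± 0.11.

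Of the 5 proteasome subunits that interferon induces, 4 had a positive difference and none passed. PSME2, a subunit of the proteasome activator, differed by 0.44 ± 0.19, its partner PSME1 by 0.33 ± 0.28, and the catalytic subunits PSMB9, PSMB8 and PSMB10 by 0.37 ± 0.71, 0.15 ± 0.37 and -0.37 ± 0.22. The median of the 5 was 0.33, but 0.059 with the replicate block, and 0.19 with the score built without OAS1. With a normal ALP tumour left out it was 0.079 (replicate 9) and 0.10 (replicate 4), and with an increased ALP tumour left out 0.14 (replicate 1), 0.14 (replicate 6) and 0.52 (replicate 3). The 22 constitutive proteasome subunits had a median of 0.20 with 21 positive differences, among them PSMB1 at 0.46 ± 0.17, PSMA7 at 0.32 ± 0.16 and PSMA6 at 0.47 ± 0.28, and none passed. The difference between both kinds of subunit was not tested.

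MHC class II presentation, which displays peptides to helper T cells and is a feature of macrophages, B cells and dendritic cells, went the other way in value. Of 10 measured genes, 9 had a negative difference, none had an unadjusted p under 0.05, and the median was -0.46. DLA-DRA differed by -0.61 ± 0.45, HLA-DRB1 by -0.56 ± 0.44, the invariant chain CD74 by -0.62 ± 0.61, DLA-DMA by -0.50 ± 0.43, DLA-DMB by -0.42 ± 0.43 and DLA-DOA by -0.14 ± 0.12. The interferon-low tumour increased ALP replicate 2 was the highest of all 18 tumours for 9 of these 10 genes. The median stayed negative without any 1 tumour (-0.68 to -0.17) and was 0.02 where the score was built without MX1.

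**Figure D4:**
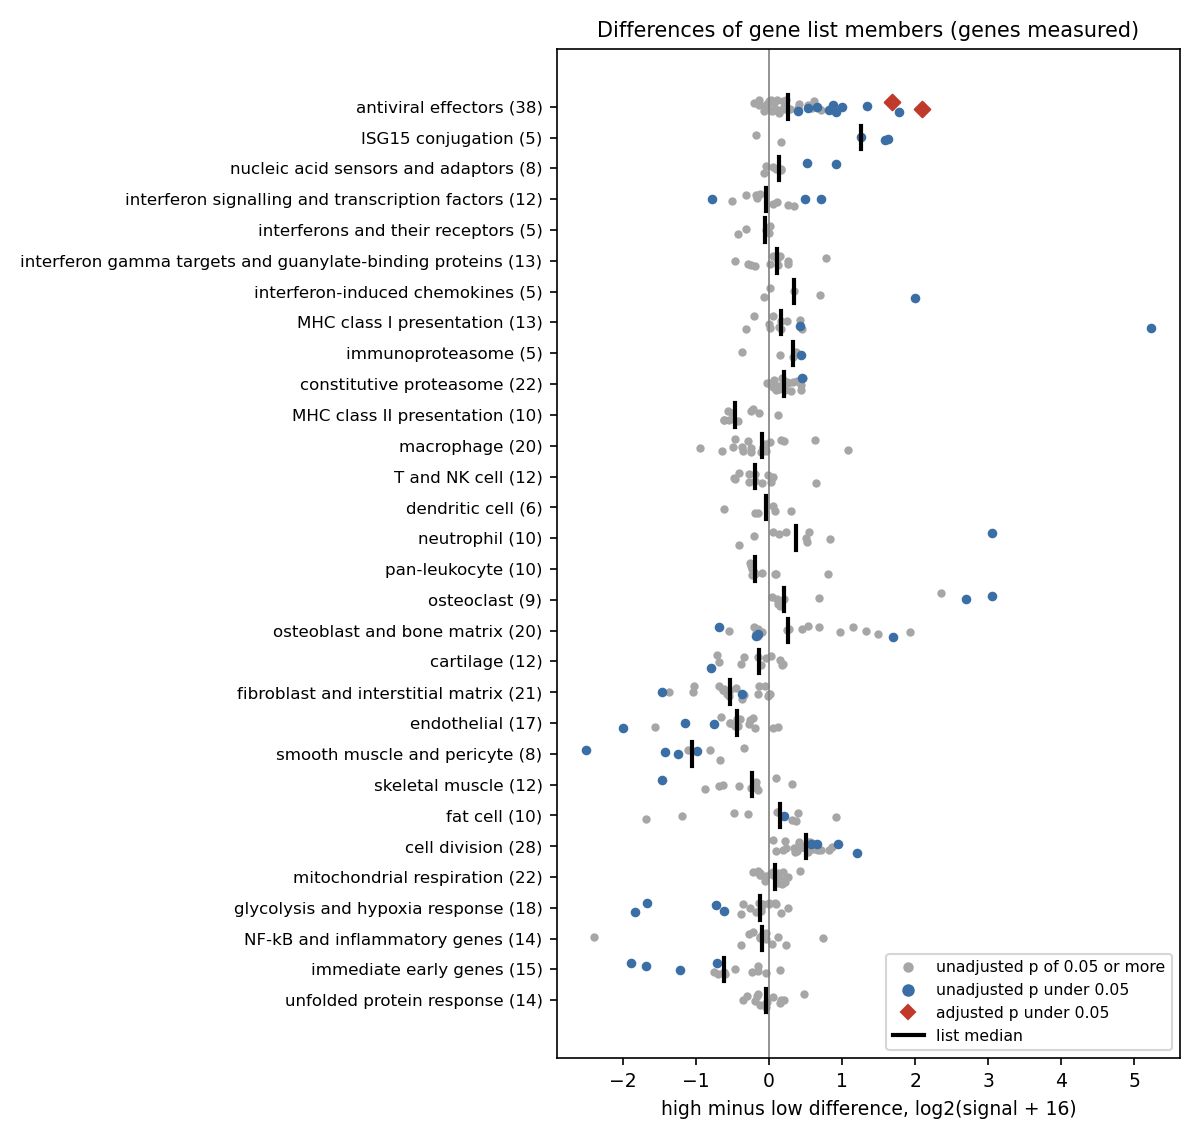
Difference between interferon-high and interferon-low tumours (horizontal axis, log2(signal + 16)) for each measured member of the gene lists with 5 or more measured members (vertical axis, number measured in parentheses), with the list median as a black bar. The 2 red diamonds are IFI44L and IFI44, the ISG15 conjugation list has the highest median at 1.26, and the smooth muscle and pericyte list the lowest at -1.05.

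Leukocyte markers gave no common direction with the score. PTPRC, the pan-leukocyte antigen CD45, lay between 6.46 and 8.35 in the high tumours and between 6.47 and 7.49 in the low ones, a difference of 0.10 ± 0.30. Its highest value was that of normal ALP replicate 9, and the difference was -0.19 without that tumour. Of 10 pan-leukocyte genes 3 had a positive difference and the median was -0.20, with RAC2, a GTPase of blood cells, at 0.81 ± 0.46, CD53 at -0.26 ± 0.34 and VAV1 at -0.23 ± 0.30. That median had the other sign in 5 of 36 alternatives, among them 0.16 with the continuous score and 0.019 without increased ALP replicate 2. The mean level of that list ran from 7.79 to 9.43 in the high tumours and from 7.87 to 9.41 in the low ones. With PTPRC as a covariate, the same 3 probe sets passed. PTPRC is 1 gene and lay near the filter level of 6.15 in most tumours, so that fit cannot settle the part of leukocyte content.

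Cell-type markers of immune cells were as mixed. Among 20 macrophage genes the median was -0.10, with the lysosomal marker CD68 at 1.09 ± 0.58, the transcription factor SPI1 at 0.63 ± 0.36 and the mannose receptor MRC1 at -0.95 ± 0.52, and no unadjusted p was under 0.05. The macrophage median had the other sign in 7 of 36 alternatives, among them 0.27 with the continuous score, 0.038 without normal ALP replicate 7 and 0.05 without increased ALP replicate 2. The macrophage list's mean level ran from 8.45 to 10.57 in the high and from 8.64 to 10.31 in the low tumours. Among 12 T and NK cell genes the median was -0.19, with CD8B at 0.64 ± 0.32, CD3E, part of the T cell receptor complex, at -0.28 ± 0.18 and the granzyme GZMK at -0.47 ± 0.28. The T and NK median was 0.064 with 9 against 9 and 0.033 with the score built without MX1. Another 13 T and NK genes, PRF1 and TBX21 among them, lay below the filter. Among dendritic cell genes BATF3 differed by -0.62 ± 0.31, CD83 by 0.30 ± 0.29 and CD1A6 by -0.14 ± 0.16. Only 3 B and plasma cell genes were measured, FCRLA at -1.50 ± 0.65, JCHAIN at 0.63 ± 0.46 and POU2AF1 at 0.13 ± 0.12, while MS4A1, CD79A, CD79B, PAX5 and BLK lay below the filter. The neutrophil list had a median of 0.37, with the granule genes CTSG at 0.54 ± 0.41 and CAMP at 0.51 ± 0.45, both far higher in increased ALP replicate 3 (8.86 and 9.90) than in any other high tumour. Without that tumour the neutrophil median was -0.038, and with the actin covariate it was -0.071. The part that immune cell content has in the interferon differences was not tested beyond the PTPRC fit, which cannot settle it.

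Osteoclast genes had positive differences of very unequal size, and osteoblast genes went both ways. MMP9, a protease that osteoclasts and neutrophils secrete, ranged from 10.85 to 13.92 in the high tumours, with a median of 13.11, and from 6.30 to 13.75 in the low ones, with a median of 9.95 (3.05 ± 1.27). ATP6V0D2, a subunit of the osteoclast proton pump, ranged from 8.85 to 12.62 and from 5.11 to 11.35 (2.70 ± 1.12), and TCIRG1, another pump subunit, differed by 0.68 ± 0.33. All 9 measured osteoclast genes had a positive difference, none passed, 2 had an unadjusted p under 0.05 (2.89% of all genes), and the median was 0.21. BGLAP, the bone matrix protein osteocalcin, ranged from 6.76 to 11.49 with a median of 8.82 in the high and from 6.29 to 8.53 with a median of 6.71 in the low tumours (1.70 ± 0.71; limma, Benjamini-Hochberg adjusted p = 0.797). ALPL, the gene of the bone form of ALP, ranged from 8.57 to 13.03 and from 6.50 to 13.53, a difference of 1.15 ± 1.12 that lay within the spread. The matrix genes COL1A2 (-0.18 ± 0.07), between 14.59 and 15.09 in all 12 tumours, and SERPINF1 (-0.68 ± 0.24) were lower in value, and of 20 osteoblast and matrix genes 11 had a positive difference, with 1 higher and 3 lower at an unadjusted p under 0.05 (2.89% and 3.19% of all genes). The median of that list was 0.26, and it was -0.10 without increased ALP replicate 2. The mean level of this list ran from 9.69 to 11.33 in the high and from 8.85 to 11.40 in the low tumours, so markers of the labelled tumour type were present on both sides.

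Genes of vessel walls and fibrous stroma were lower in value in the interferon-high tumours, though none passed. THBS1, a matrix protein that restrains vessel growth and activates TGF-beta, had the smallest p of all lower genes. It lay between 10.85 and 12.39 in the high tumours, with a median of 11.25, and between 12.39 and 13.33 in the low ones, with a median of 13.03, so that the sides only just failed to touch. Sides lay apart in that direction in 0.124% of all probe sets. The difference was -1.52 ± 0.24 (limma, Benjamini-Hochberg adjusted p = 0.0958). A second, brighter probe set differed by -1.27 ± 0.23 (limma, adjusted p = 0.181). In it the sides overlapped, with increased ALP replicate 1 (high) at 12.78 and increased ALP replicate 4 (low) at 12.71. Another, dim probe set differed by -0.18 ± 0.14. The high tumour nearest to the low ones was increased ALP replicate 1, and without it both bright probe sets passed (-1.72 and -1.45, adjusted p = 0.011 and 0.0248), together with an unnamed one.

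KCNJ8, the pore of a potassium channel of pericytes and vascular smooth muscle, lay between 5.56 and 6.30 in the high tumours, with a median of 6.01, and between 6.48 and 7.94 in the low ones, with a median of 7.29. No tumours overlapped in this probe set, as in 0.124% of all probe sets in that direction. The difference was -1.28 ± 0.22 (limma, Benjamini-Hochberg adjusted p = 0.181). A second, brighter KCNJ8 probe set differed by -1.55 ± 0.35. In it the sides overlapped, with increased ALP replicate 1 (high) at 8.50 and increased ALP replicate 4 (low) at 7.47. ABCC9, the regulatory subunit of the same channel, differed by -1.13 ± 0.29 and was named after its values were seen. Without the low tumour increased ALP replicate 4, the first KCNJ8 probe set passed (-1.43, limma, adjusted p = 0.0352), as did KCNK16, another potassium channel, and an unnamed probe set. POLR1E and PTPRG passed without increased ALP replicate 6. All of these were lower.

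All 8 measured smooth muscle and pericyte genes had a negative difference, 4 with an unadjusted p under 0.05 against 3.19% of all genes, and the median was -1.05. MCAM, a pericyte and endothelial adhesion molecule, lay between 8.27 and 11.12 in the high and between 10.79 and 11.64 in the low tumours (-1.24 ± 0.38). MYH11, the smooth muscle myosin, ranged from 6.38 to 9.94 and from 6.84 to 12.99 (-2.51 ± 1.03), and the smooth muscle calponin CNN1 differed by -1.42 ± 0.51. The interferon-low tumour normal ALP replicate 3 was the highest of all 18 for 6 of the 8 genes. The median lay between -1.22 and -0.84 with any 1 tumour left out and was -0.58 where the score was built without ISG15.

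Of 17 endothelial genes 15 had a negative difference, 3 with an unadjusted p under 0.05 (3.19% of all genes), and the median was -0.44. It was -0.19 without normal ALP replicate 7, -0.26 without normal ALP replicate 3 and -0.70 without increased ALP replicate 1. The clotting factor VWF ranged from 8.0 to 12.48 with a median of 9.23 in the high tumours and from 10.09 to 12.56 with a median of 11.71 in the low ones (-2.0 ± 0.65). All high tumours but increased ALP replicate 1 lay below every low tumour. CLDN5, a junction protein of endothelium, differed by -0.75 ± 0.26 and the adhesion molecule PECAM1 by -1.14 ± 0.50. Fibroblast and matrix genes showed 19 negative differences of 21, with a median of -0.54 (-0.21 where the score was built without ISG15) and the collagen COL5A2 at -0.37 ± 0.10, the fibulin FBLN2 at -1.46 ± 0.63 and the proteoglycan VCAN at -1.37 ± 0.65. None of these passed (limma, Benjamini-Hochberg adjusted p from 0.698 to 0.811). The mean level of the smooth muscle and pericyte list ran from 8.47 to 10.10 in the high and from 9.42 to 11.46 in the low tumours, and that of the endothelial list from 7.68 to 9.90 and from 8.72 to 9.81. The part of stromal content in the other differences was not tested.

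**Figure D5:**
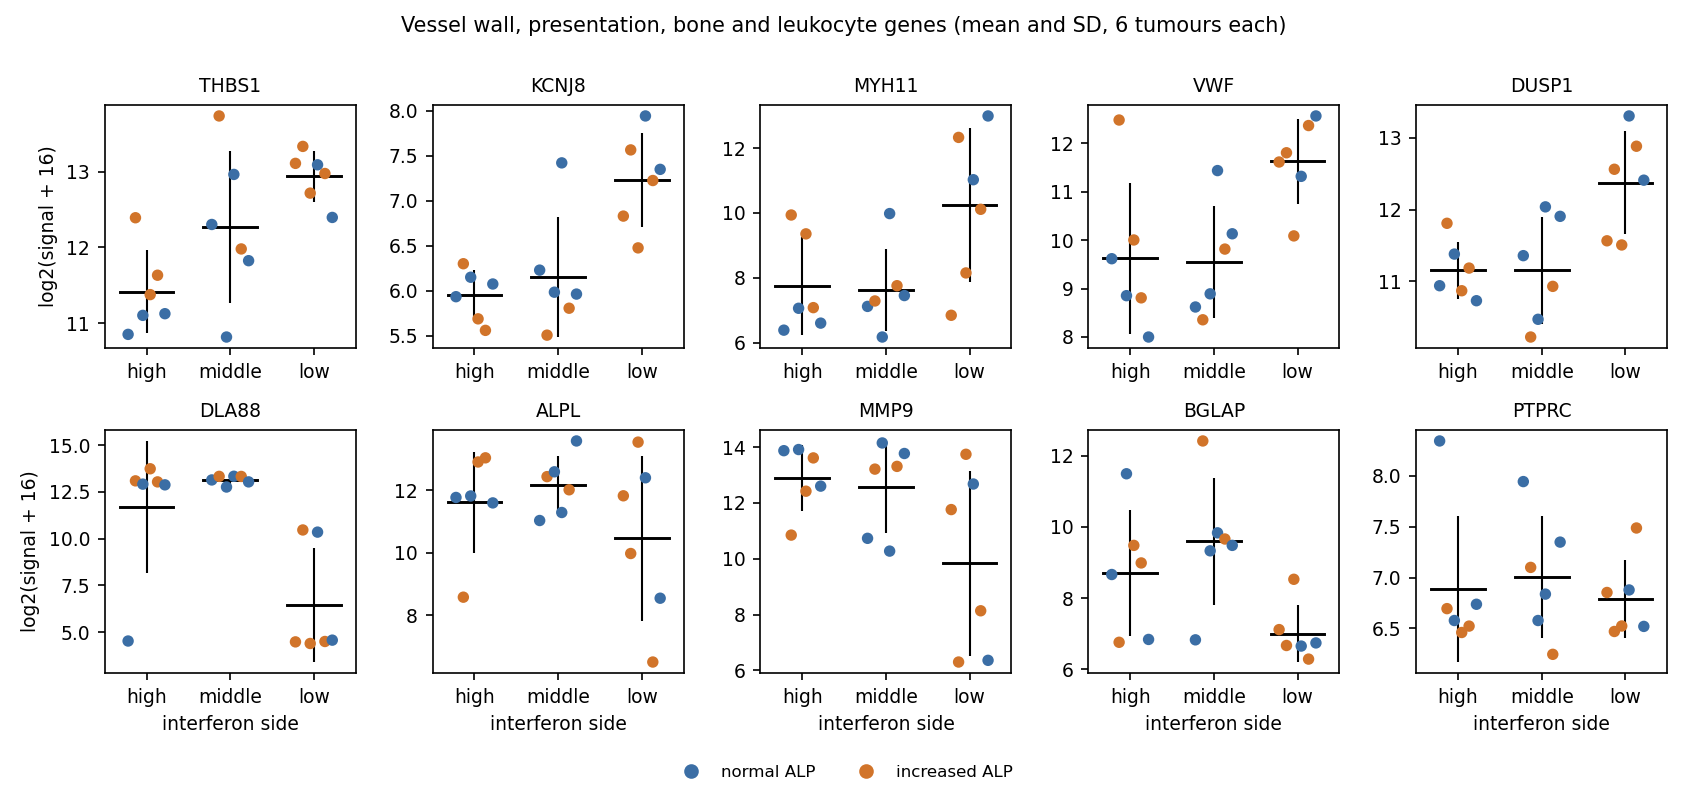
Levels of 10 vessel wall, presentation, bone and leukocyte genes (vertical axes, log2(signal + 16)) in the high, middle and low tumours, 1 point per tumour coloured by serum ALP group, with the mean as a bar and the SD as a line (n = 6). THBS1 and KCNJ8, each drawn from its probe set of smallest p, do not overlap between high and low, while a brighter probe set of each does. DLA88 is near 4.5 or above 10 in every tumour, and ALPL and PTPRC overlap.

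Cell division genes were higher in value and early response genes lower. All 28 measured cell division genes had a positive difference, 4 with an unadjusted p under 0.05 (2.89% of all genes), and the median was 0.51. The kinetochore proteins CENPF and NUF2 differed by 1.20 ± 0.43 and 0.95 ± 0.41 and the replication helicase subunit MCM7 by 0.58 ± 0.22. The list median was 0.20 without normal ALP replicate 3 and at most 0.66 with any 1 tumour left out. Normal ALP replicate 2, in neither side, was the highest of all 18 tumours for 16 of the 28. Of 15 immediate early genes, which respond within minutes to stimulation, 14 had a negative difference, 4 with an unadjusted p under 0.05 (3.19% of all genes), and the median was -0.61 (-0.31 where the score was built without MX1). DUSP1, a phosphatase that shuts off MAP kinases, lay between 10.73 and 11.81 in the high and between 11.51 and 13.31 in the low tumours (-1.22 ± 0.31), and the nuclear receptors NR4A1 and NR4A2 differed by -1.88 ± 0.67 and -1.68 ± 0.62. Neither list had a member that passed (limma, smallest Benjamini-Hochberg adjusted p = 0.562 for DUSP1).

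Outside all lists, the 12 named genes of smallest p per direction also did not pass (limma, Benjamini-Hochberg adjusted p from 0.461 to 0.546 for the higher ones and from 0.0958 to 0.546 for the lower ones). Each of these genes was read from its probe set of smallest p, so its difference is a selected one. The higher ones were TXNRD1, the thioredoxin reductase (0.96 ± 0.21), the ubiquitin ligase HUWE1 (0.50 ± 0.11), the arginyltransferase ATE1 (1.15 ± 0.26), the neurotrophin receptor scaffold KIDINS220 (1.31 ± 0.29), the cytokine signalling suppressor SOCS6 (0.64 ± 0.14), the ribokinase RBKS (0.69 ± 0.16), the chromatin remodeller SMARCA5 (0.41 ± 0.10), the translation factor EIF4G3 (0.74 ± 0.17), EVI5 (0.63 ± 0.15), U2SURP (0.52 ± 0.13), the cytoskeletal linker PLEC (0.91 ± 0.22) and GATAD2B (0.56 ± 0.14). For SMARCA5, 1 of 3 probe sets went that way. Besides THBS1 and KCNJ8, the lower ones were the mitochondrial folate enzyme ALDH1L2 (-1.19 ± 0.25), the mitochondrial fusion protein MFN1 (-0.79 ± 0.17), TSC22D1 (-0.95 ± 0.20), the deadenylase CNOT7 (-0.79 ± 0.17), TINAGL1 (-1.11 ± 0.26), the transcription factor EBF3 (-0.55 ± 0.13), RGCC (-0.81 ± 0.19), AFAP1L2 (-0.41 ± 0.10), GPCPD1 (-0.72 ± 0.17) and PPP6R3 (-0.43 ± 0.11). In its probe set of smallest p, TSC22D1 lay between 7.29 and 8.20 in the high tumours. That was below the 8.38 to 9.22 of the low ones and the 8.57 to 9.96 of the middle ones. In the TSC22D1 probe set of highest mean the high and low sides overlapped. CNOT7 differed by -0.525 ± 0.135 in its probe set of highest mean. Counting every gene by its probe set of highest mean, 15 genes were apart upwards (0.14%) and 14 downwards (0.131%).

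Used as a graded value over all 18 tumours, the score brought out more of the interferon genes. Scaled to the distance between the 2 sides, 21 probe sets were higher with a rising score (0.0816%) and none was lower (0.0%). Of these, 16 had a gene name, and the 11 genes were IFI44, IFI44L, HERC6, HERC5, IFI35, RTP4, PARP14, DHX58, IFIH1, MX2 and USP18, all of which are on the interferon lists. The other 5 had no gene name. IFI44 differed by 1.67 over that distance (limma, Benjamini-Hochberg adjusted p = 0.000102), HERC6 by 1.50 (0.000272), HERC5 by 1.72 (0.000798), IFI44L by 2.08 (0.000748), RTP4 by 0.97 (0.00345), and MX2 by 1.92 (0.0273). IFI35 passed with 4 probe sets. IRF7 came close (0.91, limma, adjusted p = 0.0591), whereas CXCL10 (2.43, adjusted p = 0.998) and THBS1 (-1.14, adjusted p = 0.998) did not. In the probe set of highest mean of each of the 11 genes, normal ALP replicate 9, the tumour of highest score, was the highest of all 18. In another IFI44L probe set that passed, increased ALP replicate 3 lay above it (9.13 against 8.73). How far these calls rest on normal ALP replicate 9 was not tested.

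Array quality measures overlapped between the sides. Array medians ran from 6.25 to 6.31 in the high and from 6.27 to 6.30 deposited log2 units in the low tumours. The signal of the 3' actin probe set over the middle one, a measure of RNA degradation, was 1.76 ± 0.37 in the high and 1.53 ± 0.30 in the low tumours (SD, n = 6; exact permutation test, p = 0.245), and the like measure for GAPDH was 0.625 ± 0.0948 and 0.632 ± 0.128 (p = 0.92 by the same exact test). For the 3' over the 5' actin probe set it was 2.73 ± 0.76 and 1.98 ± 0.83 (SD, n = 6; exact permutation test, p = 0.134). The part of RNA quality in the differences was not tested beyond the fits with actin or GAPDH as a covariate. IFI44 and the unnamed transcript passed in both, and IFI44L passed with GAPDH but not with actin (2.04, limma, Benjamini-Hochberg adjusted p = 0.0614).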

How the data were processed

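RNA of 18 canine osteosarcomas was measured on 1 array each. The deposited table holds log2 values that the authors made from the scanned arrays, with MAS5 named per the submitters' processing notes. Which step it served is not given in the sources used here. The members, gene lists and tests were chosen with earlier results of these data known. Gene names came from the platform annotation, in which 29254 of 42924 probe sets other than controls had 1 symbol, 439 had several and 13231 none. Values were turned back to linear signal, 16 was added and log2 taken. Probe sets whose mean lay under the 40th percentile (6.15) were left out, and 25754 entered limma 3.58.1 (R 4.3.3) with a trended prior, of which 7 of the scoring genes are not reported. Single values were compared with exact permutation tests and shares with Fisher's exact test (SciPy 1.17.1). The scripts were tested on simulated data.

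A gene in a list stands for its probe set of highest mean, and lists are described by counts and medians. Outside the lists, the 12 genes of smallest p per direction were named, each read from its probe set of smallest p. Also named were up to 6 per interferon list and up to 3 per other list. All measured interferons, receptors, STAT and IRF genes, PTPRC and ALPL were named too. Alternatives changed the offset, filter, normalization, prior, weights, covariates, number of tumours per side and scoring genes, and left out each tumour in turn. All 18 columns belonged to labelled samples.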

Additional observations from a re-analysis of the deposited data

Results flagged for a closer look

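In 36 of 374 groups of 6 tumours examined, 1 tumour lay apart from the other 5 by Dixon's ratio, where chance gives about 1 in 20 groups. All values are log2(signal + 16), with the nearest other tumour of the same side in parentheses.

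On the interferon-high side, normal ALP replicate 9 read 4.53 for DLA88 (12.88), 8.35 for PTPRC (6.74), 7.46 for DHX58 (6.71), 9.91 for the muscle gene TNNI2 (8.38), 6.96 for PPP6R3 (6.69) and 8.08 for the skeletal muscle mean (6.80). Increased ALP replicate 1 read 8.50 for the second KCNJ8 probe set (7.18), 8.57 for ALPL (11.59), 9.04 for IRF1 (8.12), 9.47 for CCL19 (7.15) and 9.33 for IFNAR1 (8.06). Increased ALP replicate 3 read 10.90 for TAP2 (10.25), 10.77 for PSME1 (11.93), 8.86 for CTSG (6.68), 9.90 for CAMP (7.24), 6.57 for the calcium channel RYR1 (6.29), 8.09 for the stress factor DDIT3 (8.96) and 9.63 for the neutrophil mean (8.33). Normal ALP replicate 7 read 8.75 for the cartilage regulator SOX9 (6.93).

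On the interferon-low side, increased ALP replicate 4 read 8.02 for UBA7 (8.98), 12.64 for PSMB1 (11.98), 7.47 for the second KCNJ8 probe set (8.68), 8.53 for BGLAP (7.11), 12.08 for the constitutive proteasome mean (11.46) and 10.05 for the skeletal muscle mean (7.26). Increased ALP replicate 6 read 10.62 for PSME1 (11.45), 6.38 for DHX58 (6.23), 14.75 for COL1A2 (14.96), 5.40 for the second IFI44 probe set (5.90), 6.45 for RYR1 (6.21) and 7.52 for PLEC (8.41). Increased ALP replicate 2 read 10.30 for TAP1 (9.87), 7.74 for GZMK (6.49), 8.06 for IDO1 (6.53) and 9.00 for the fat cell mean (8.01). Normal ALP replicate 4 read 10.47 for the immediate early mean (9.36).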

How the results depend on the processing

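The count of probe sets higher in the interferon-high tumours was 3. It was 21 with the continuous score and 0 with 5 against 5, with 9 against 9, with the score built without MX1 or without ISG15, and without both arrays of high BioB signal, the last chosen after seeing the data. With 1 tumour left out it ran from 0 to 4. The count of lower probe sets was 0 and was 1 with array weights (KCNJ8), the score without OAS1 (DLC1) and the actin covariate (THBS1), and it ran from 0 to 3 with 1 tumour left out. The cause was not tested. Whether tumours of equal replicate number are paired was not settled. Over 9 such pairs r ran from -0.164 to 0.27, with 4 over 0.1, and no tumour matched its own number best. The median r was 0.092 for equal numbers and -0.009 for other numbers, and the correlation within the replicate block was 0.231. With the replicate block 3 probe sets passed, the same 3.

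Differences of 22 named genes, none of which passed, turned sign in some setting. UBA7 was 0.17 (continuous score), 0.05 (5 against 5), 0.062 (without MX1), 0.16 (without ISG15) and 0.054 (without OAS1). With the continuous score, DLA-DMB was 0.048, TNFSF10 0.15, CCL2 0.64, IFNL1 0.004, TLR3 0.018, CD53 0.086 and VAV1 0.10. Without MX1 in the score, CD74 was 0.094, DLA-DMB 0.064, PSMB10 0.076, TNFSF10 0.02, CCL2 0.27, CD53 0.20 and VAV1 0.043. Without ISG15, CD1A6 was 0.028, the third THBS1 probe set 0.043, TNFSF10 0.33, CCL2 0.55, IFNL1 0.013 and TLR3 0.16. Without OAS1, CCL2 was 0.48, IFNL1 0.007, TLR3 0.045 and TNNI2 0.01. With 5 against 5, CCL2 was 0.38, IFNL1 0.013 and IKBKE -0.037, and with 9 against 9 WARS1 was 0.035, CCL2 0.20, CCL19 -0.007, IFNL1 0.007 and CD53 0.086. With the replicate block CCL2 was 0.043, CCL19 -0.062, IFNGR2 -0.031 and IL10RB -0.067. With the actin covariate STAT2 was -0.044, CCL19 -0.16, IFNGR2 -0.03 and IL10RB -0.11, with the PTPRC covariate IFNGR2 was -0.008 and IL10RB -0.072, and with ALP group as a covariate CCL2 was 0.018. With array weights IFNL1 was 0.049 and TNNI2 0.30, and with an offset of 1 CCL19 was -0.006. Without both arrays of high BioB signal CCL2 was 0.70, CCL19 -0.023, IFNL1 0.001 and TLR3 0.042. With 1 tumour left out, CCL19 ran from -0.44 to 0.18, CCL2 from -0.60 to 0.43, IFNGR2 from -0.14 to 0.12, IL10RB from -0.26 to 0.23, PSMB8 from -0.05 to 0.40, PSMB9 from -0.031 to 0.88, PTPRC from -0.19 to 0.24, STAT2 from -0.027 to 0.15 and TLR3 from -0.17 to 0.064.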

Other observations

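Gene groups outside interferon, stroma and bone had no member that passed (limma with Benjamini-Hochberg adjustment). Of 18 glycolysis and hypoxia genes 13 had a negative difference, with a median of -0.12 that had the other sign in 4 of 36 alternatives. PDK1, a kinase that restrains the use of pyruvate in mitochondria, lay between 10.23 and 11.08 in the interferon-high tumours. In the interferon-low tumours it lay between 11.10 and 12.13 (-0.73 ± 0.20, limma, Benjamini-Hochberg adjusted p = 0.679). The sides were apart by a narrow margin, as in 0.131% of all genes in that direction. ANKRD37 and P4HA2 differed by -1.67 ± 0.51 and -0.62 ± 0.23. Of 12 cartilage genes 8 were negative, with the collagen COL9A1 at -0.79 ± 0.36 and a median of -0.13 that had the other sign in 7 of 36 alternatives. Of 12 skeletal muscle genes 10 were negative, with the actin ACTA1 at -1.46 ± 0.65 and a median of -0.23. The low tumour increased ALP replicate 4 had a mean skeletal muscle level of 10.05 against 7.26 for the next low tumour, and without it the median was 0.25. The median was 0.083 over respiration genes and -0.033 over unfolded protein response genes. Fat cell genes went both ways, from FABP4, a fatty acid carrier, at -1.68 to CIDEA, a lipid droplet protein, at 0.92, and their median of 0.16 was -0.22 without increased ALP replicate 1. Among 14 inflammatory genes the cytokine IL6 differed by -2.39 ± 1.20 and BIRC3, an inhibitor of cell death, by 0.74 ± 0.57.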
